A study of Mus musculus with 2 samples.

Results

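Partly methylated runs are short stretches of the genome in which several CpG in a row were methylated on some reads and unmethylated on others. They were chosen by their own CpG levels. A run was at least 4 consecutive listed CpG on an autosome of replicate 2, each covered by 20 to 100 reads and each with 10 to 60% of reads methylated, and with neighbours at most 300 bases apart. There were 7330 such runs among 162899 stretches of at least 4 listed CpG of any level under the same spacing. They held 34547 CpG, which is 1.20% of the 2870859 autosomal CpG in that depth range. They are set against 66353 high runs, which follow the same rule with every CpG above 80% methylated and hold 321685 CpG. A further class, 4572 low runs with every CpG below 10%, was added after the data were seen. The CpG levels below are a description with no test, because they chose the runs. CHG and CHH levels, CpG beyond the spacing limit and the other library did not enter the rule, although CHG and CHH come from the same DNA fragments as the CpG.

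DNA came from the dentate gyrus, a region of the hippocampus that holds granule neurons and other cells, dissected on both sides from adult male C57Black6 mice aged 8 to 10 weeks. The mice are labelled as wild type (WT), and no treatment is named. The only group had 2 libraries, replicate 1 and replicate 2, which the series' design text calls biological replicates. Replicate 1 listed 7959 CpG and replicate 2 listed 2881459, so runs were sought in replicate 2 alone. The median depth of listed CpG was 24 and 23 reads, and each level is an average over all cells of the tissue.

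Cytosine methylation in mammals is found mainly at CpG, where the maintenance enzyme DNMT1 copies it onto the new strand at replication. Most CpG of the genome are highly methylated, while CpG-rich promoters are usually unmethylated. Intermediate levels are known at imprinted regions, where 1 parental allele is methylated, at many distal enhancers, and where the cells of a tissue differ. Neurons also carry methylation outside CpG, in the contexts CHG and CHH (H stands for A, C or T), and this is laid down largely by DNMT3A. Bisulfite reads report methylcytosine and hydroxymethylcytosine together, and hydroxymethylcytosine is abundant in brain. Which of these lies behind any single run was not tested.

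No genome of the files' build was used here, so runs are given by mm9 position. A subset of RefSeq promoters (build GRCm38.p6, 250 bases before to 50 after a gene's start) could still be placed on mm9 positions by the pattern of listed CpG, CHG and CHH, a step devised after the data were seen. Of 31396 autosomal promoters, 411 matched 1 place with at least 12 listed cytosines, at least 4 of them CpG, and no mismatch. Of these, 396 also lay beside another placed promoter at a like shift between builds, and they made 395 different windows. At least 4 CpG of a partly methylated run fell in 22 windows (5.57%), at least 4 of a high run in 51, and at least 4 of a low run in 202. The requirement for many listed cytosines sets which promoters could be placed, so these shares are not those of all promoters. Of the 43 imprinted genes on the list kept for this comparison, 33 had a promoter in the table and 0 were placed.

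The sequences below are shown because they give the letters in which named partly methylated runs lie, with a high and a low window for contrast. Each is the 250 bases before the gene's start, 5′ to 3′ on the gene's strand, with capitals at the CpG that belong to the run. The letters are those of GRCm38.p6 and the positions are mm9.
Igf1, partly methylated, chr10:87323605-87323854, plus strand: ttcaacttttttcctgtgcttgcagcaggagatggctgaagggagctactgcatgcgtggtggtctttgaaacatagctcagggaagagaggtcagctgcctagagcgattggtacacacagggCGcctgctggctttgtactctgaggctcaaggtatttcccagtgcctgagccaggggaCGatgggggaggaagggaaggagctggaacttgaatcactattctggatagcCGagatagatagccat
Olr1, partly methylated, chr6:129457183-129457432, minus strand: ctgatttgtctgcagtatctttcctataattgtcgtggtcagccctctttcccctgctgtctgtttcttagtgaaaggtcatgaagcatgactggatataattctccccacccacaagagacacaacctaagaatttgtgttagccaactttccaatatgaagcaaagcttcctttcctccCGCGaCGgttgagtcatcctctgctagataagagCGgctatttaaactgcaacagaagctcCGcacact
Impg2, partly methylated, chr16:56204175-56204424, plus strand: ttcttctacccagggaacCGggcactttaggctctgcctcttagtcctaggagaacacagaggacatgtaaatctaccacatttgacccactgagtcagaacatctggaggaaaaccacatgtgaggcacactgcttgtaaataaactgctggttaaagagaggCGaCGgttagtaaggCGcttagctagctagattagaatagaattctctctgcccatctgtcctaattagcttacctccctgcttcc
Mlip, partly methylated, chr9:77195663-77195912, minus strand: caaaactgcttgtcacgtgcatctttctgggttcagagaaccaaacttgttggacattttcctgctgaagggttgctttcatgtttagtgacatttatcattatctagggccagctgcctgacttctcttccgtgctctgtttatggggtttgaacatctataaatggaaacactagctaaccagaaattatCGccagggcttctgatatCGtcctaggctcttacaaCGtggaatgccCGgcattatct
Lect2, high, chr13:56649899-56650148, minus strand: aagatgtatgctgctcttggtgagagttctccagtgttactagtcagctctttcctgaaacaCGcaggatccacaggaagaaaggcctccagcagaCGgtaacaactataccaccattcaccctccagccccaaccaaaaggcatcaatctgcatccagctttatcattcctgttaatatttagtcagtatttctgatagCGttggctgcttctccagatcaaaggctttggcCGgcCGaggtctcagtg
Ing4, low, chr6:124989615-124989864, plus strand: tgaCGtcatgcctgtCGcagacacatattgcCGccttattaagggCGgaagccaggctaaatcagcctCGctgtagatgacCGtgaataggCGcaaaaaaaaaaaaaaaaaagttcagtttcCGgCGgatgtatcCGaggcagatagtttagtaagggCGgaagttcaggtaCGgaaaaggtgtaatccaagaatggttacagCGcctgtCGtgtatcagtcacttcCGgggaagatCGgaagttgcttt

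In the Igf1 window, which belongs to a start of the gene for insulin-like growth factor 1, the 4 CpG of the run were at 36.4%, 21.7%, 20% and 55% on 20 to 23 reads each. The last of them lies past the gene's start and is not in the printed letters, and the listed CpG before the run was at 0%. At Olr1, which encodes the scavenger receptor for oxidised low-density lipoprotein, the 5 CpG were at 30.4%, 14.3%, 23.8%, 20.7% and 16.7% in the order printed. The first 3 of them sit within a few bases of each other, with 7 of 23, 3 of 21 and 5 of 21 reads methylated. Counting error is large on so few reads, and whether these CpG differ was not tested. At Impg2, the gene for an interphotoreceptor matrix proteoglycan of the retina, the 5 CpG were at 35%, 42.3%, 23.1%, 60% and 16.7%, the last of them past the start. At Mlip, which encodes a lamin-interacting protein of muscle, the 4 CpG of the run stood at 35.7%, 30%, 39.3% and 39.3%. Listed CpG on either side of the Mlip run were at 8.33% and 69.2%. By contrast, the 7 CpG of the Lect2 window, which belongs to a secreted protein of the liver, were at 83.3% to 100%, and 5 of them are in the printed letters. All 16 CpG of the Ing4 window, which belongs to a chromatin-binding tumour suppressor, were at 0% on 21 to 39 reads each. The promoters of Igf1, Olr1, Impg2, Mlip and Sp140 were the partly methylated windows with a gene name other than a Gm, LOC or Rik label, and at Sp140 the whole window was at 59.1%.

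The letters of the partly methylated windows were near those of high windows and of the 120 remaining placed windows, which held fewer than 4 CpG of any run, and low windows were richer in CpG. GC content had a median of 47.3% (32 to 62%), against 47.7% in high, 46.8% in remaining and 56.3% in low windows. They held a median of 7 CpG in 300 bases, as high and remaining windows did, whereas low windows held 17. The ratio of observed to expected CpG had medians of 0.424, 0.496, 0.415 and 0.769 in partly methylated, high, remaining and low windows. These values describe 22, 51, 120 and 202 windows, some of which overlap, and the partly methylated windows range up to 18 CpG and a ratio of 0.765. In the CpG-rich range the classes therefore overlap. CHG and CHH combined were methylated on 0.667% of reads in partly methylated windows (exact 95% interval 0.519 to 0.843%). The level was 0.816% in high windows (0.695 to 0.952%) and 0.285% in low windows (0.239 to 0.337%). In the remaining windows, with a median CpG level of 64.9%, it was 0.595% (0.525 to 0.671%). The interval of partly methylated windows overlaps those of high and of remaining windows, and that of low windows lies below all of these. All intervals in the text are at 95% and reflect counting error alone, since PCR copies of 1 molecule cannot be told apart in these reads.

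Most partly methylated runs were short. Of the 7330 runs, 4376 (59.7%) had exactly 4 CpG, 1757 had 5, 657 had 6, and 64 (0.873%) had 10 or more, up to 23. High runs had 4 CpG in 56.1% of cases and 10 or more in 1.38%, and low runs in 39.8% and 7.20%. The span from first to last CpG had a median of 173 bases (5th to 95th percentile 39 to 483, range 7 to 1032), against 236 bases in high and 124 in low runs. The mean spacing of listed CpG within a run had medians of 47.7, 63.5 and 28 bases in the same order. Partly methylated runs were thus intermediate between high and low runs in both span and spacing. Listed CpG are those with enough reads, so an unlisted CpG may lie between 2 neighbours of a run. The rule's minimum decides the count: a further 13145 stretches had exactly 3 CpG in a row at 10 to 60%, with a median level of 34.8%, against 33.0% in runs of exactly 4.

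The read-weighted level of a run, meaning all methylated reads of its CpG over all reads, had a median of 32.7% (5th to 95th percentile 18.9 to 47.1%, range 10.8 to 57.3%). There were 506 runs at 10 to 20%, 2339 at 20 to 30%, 2879 at 30 to 40%, 1445 at 40 to 50% and 161 at 50 to 60%. The levels formed a single broad hump with its top in the lower 30s. A run level averages at least 4 CpG that the rule holds to 10 to 60%, so a hump inside that window follows in part from the rule. Within a run the CpG spread by a median SD of 11.1 points, and counting error alone would give a median of 9.55 points at these depths. The window of the rule limits the first value and not the second, so their difference does not measure the spread beyond counting. The highest and lowest CpG of a run were a median of 26.1 points apart. CpG at the 2 ends of a run averaged 33.2%, and those between averaged 32.4%. The single CpG of the runs filled the window unevenly: 7158 were at 10 to 20%, 8530 at 20 to 30%, 7461 at 30 to 40%, 5930 at 40 to 50% and 5468 at 50 to 60%.

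**Figure D1:**
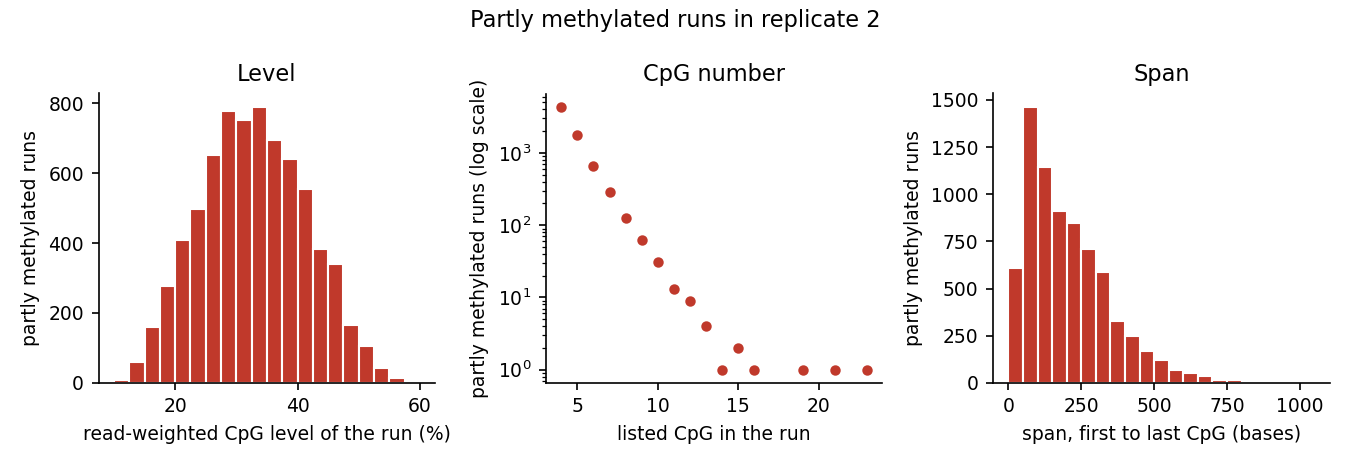
Level, number of CpG and span of the 7330 partly methylated runs of replicate 2. Bars count runs by read-weighted CpG level (%) and by span (bases), and points count runs by number of listed CpG on a log axis: levels peak in the lower 30s, and 59.7% of runs have 4 CpG.

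Runs were found on every autosome. Relative to listed CpG they were least frequent on chromosome 7, with 2.16 per 1000 listed CpG, and most frequent on chromosome 19, with 3.15. High runs were also least frequent on chromosome 7, with 19.5 per 1000, and most frequent on chromosome 10, with 25.9. The median level of partly methylated runs differed little between chromosomes, from 31.7% on chromosome 18 to 34.3% on chromosome 10. Among 2417 windows of 1 Mb, 442 held no partly methylated run and the median window held 2. The richest was 57000001 to 58000000 on chromosome 19, with 20 runs among 1926 listed CpG. Another partly methylated run lay within 1 kb of 240 runs (3.27%) and within 100 kb of 4352 (59.4%). A low run lay within 300 bases of 73 partly methylated runs (0.996%) and of 4 high runs (0.00603%). Within 10 kb the shares were 6.85% and 3.55%.

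The longest run by CpG number lay on chromosome 19 from 53423515 to 53423675, with 23 CpG in 161 bases. Its CpG ranged from 12.5% to 36.4% around a run level of 24.7% on 20 to 49 reads each. Listed CpG over 300 and up to 2000 bases away were at 91.9% on the left and 92.7% on the right. These sides leave out the nearest 300 bases, so they do not show what the run directly borders. No CHG or CHH site was listed within it.

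The run with the second most CpG, on chromosome 17 from 6491917 to 6492447, held 21 CpG at 31.8%. Its levels were not even along the run: the first 4 CpG were at 11.9 to 17.9%, the next 3 at 10 to 17.4%, and CpG 9 to 13 at 48.3 to 55.2%. Of 1395 CHG and CHH reads in this run, 2 were methylated (0.143%, 0.0174 to 0.517%).

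On chromosome 18 a run of 19 CpG from 70724273 to 70724949 was at 19%, with all CpG between 12% and 30%. On chromosome 7 a run of 16 CpG from 143388385 to 143389230 was at 29%, with CpG from 12% to 54.5%. The other 6 of the 10 runs with the most CpG had 13 to 15 CpG, run levels of 22.9% to 40% and spans of 135 to 1032 bases. Of these 10 runs, 5 had listed CpG on both sides over 300 and up to 2000 bases away. Both sides were above 90% at 2 of them, the run of 23 CpG and a run of 13 CpG on chromosome 19 from 55544398 to 55545237.

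**Figure D2:**
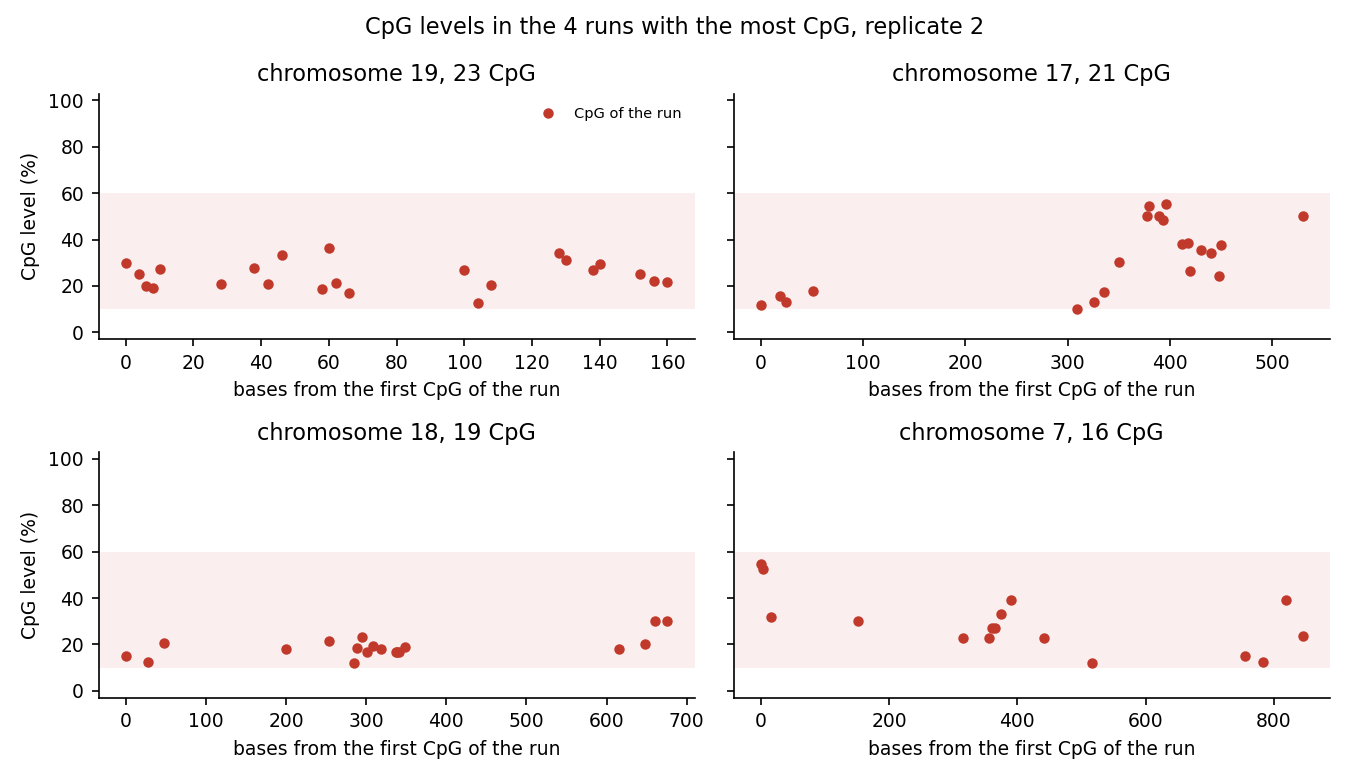
CpG level (%) against distance in bases from the first CpG, for the 4 partly methylated runs with the most CpG in replicate 2. Each point is 1 CpG and the shaded band is the 10 to 60% of the rule: the chromosome 19 run stays between 12.5% and 36.4%, while the chromosome 17 run moves from 10% to 55.2%.

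CpG levels rose with distance from the runs. The rule itself requires the next listed CpG within 300 bases to lie outside 10 to 60%. Such a CpG was listed at 4637 of 14660 run edges, and it was below 10% at 30.9% of them, over 60 to 80% at 38.5% and above 80% at 30.6%. Over all autosomal CpG, 3.19% were below 10% and 64.8% above 80%. At high runs, whose rule instead bars a next CpG above 80%, 0.55% of such CpG were below 10%, 24.4% at 10 to 60% and 75.1% over 60 to 80%. The CpG level was 48.5% at 1 to 100 bases from the nearest run, 59.7% up to 300, 67.6% up to 1000 and 74.5% up to 2000 bases, each range starting where the one before ends. It reached 77.3% at 2 to 5 kb, 78.7% at 5 to 20 kb and 79.5% at 20 to 100 kb, beside 79.0% over all autosomal CpG.

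Beyond the reach of the spacing rule, over 300 and up to 2000 bases away, the CpG level was 71.5% around partly methylated runs and 78.8% around high runs. The difference of -7.35 points (-7.45 to -7.26) was negative on 19 of 19 autosomes, from -11.2 to -3.07 points, with an SD of 2.18 over autosomes. At 2 to 5 kb the level was 77.3% around both classes. Farther out it was 78.7% around partly methylated and 76.8% around high runs at 5 to 20 kb. At 20 to 100 kb it was 79.5% and 76.9%. CpG inside any run of a class were left out of the surroundings of that class. That took CpG at 94.2% from around high runs and CpG at 32.7% from around partly methylated runs, which lowers the former and raises the latter. The equal level at 2 to 5 kb and the order farther out therefore do not show how the surroundings compare. The difference at over 300 and up to 2000 bases moved in size with the spacing rule, to -4.04 points with gaps of up to 500 bases. It moved to -12 points with CpG of at least 30 reads. With 1 library holding the runs, no test between the classes against replicate spread exists.

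**Figure D3:**
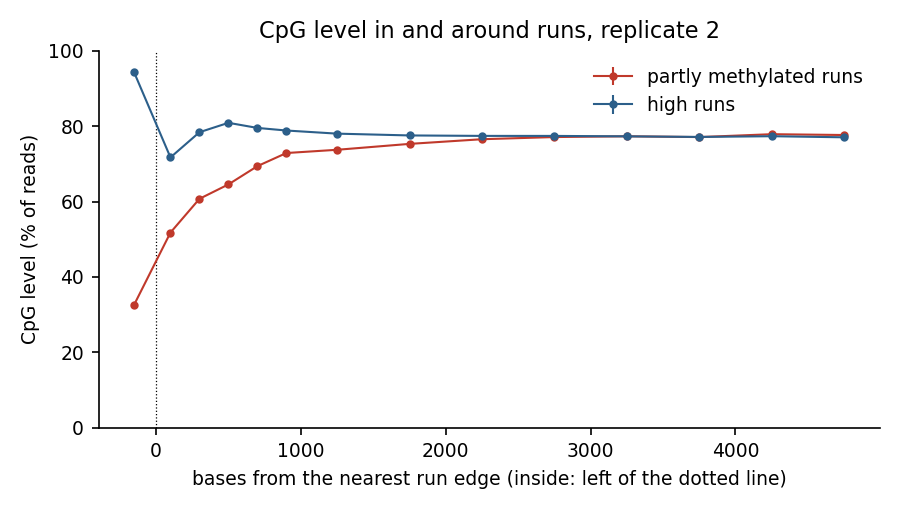
Read-weighted CpG level (% of reads) inside runs, left of the dotted line, and by distance in bases from the nearest run edge in replicate 2. Points are distance bins and error bars exact 95% intervals: levels around partly methylated runs climb from 32.7% inside to 77.3% at 2 to 5 kb, where those around high runs are also 77.3%. CpG inside any run of a class are left out of the surroundings of that class.

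A closer look at single runs used the 2969 partly methylated runs with at least 2 listed CpG on each side over 300 and up to 2000 bases away. Both sides were above 80% for 815 runs (27.5%), against 47.6% of high runs. Both were above 60%, without both being above 80%, for 851 runs (28.7%). The lower side was at 10 to 60% for 1106 runs (37.3%), against 18.9% of high runs. There were 189 runs (6.37%) with 1 side below 10%, and 8 had both sides below 10%. The share with 1 side below 10% was 0.994% for high runs. Over 300 and up to 2000 bases away, most partly methylated runs with both sides listed therefore had CpG of intermediate or high level. These sides leave out the nearest 300 bases. There the next listed CpG was below 10% at 30.9% of the edges that had one, against 0.55% at high runs. Whether a run borders an unmethylated stretch cannot be read from these sides.

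CHG and CHH methylation was lower inside partly methylated runs than inside high runs. The CHG level was 0.585% of reads (0.572 to 0.599%) in partly methylated runs, 0.881% (0.875 to 0.886%) in high runs and 0.362% (0.347 to 0.377%) in low runs. The CHH level was 0.649% (0.628 to 0.670%), 1.04% (1.04 to 1.05%) and 0.435% (0.406 to 0.466%). Over all autosomal sites the levels were 0.784% for CHG and 0.889% for CHH. Mitochondrial cytosines, used as the background of failed conversion, which takes them to be all but unmethylated, stood at 0.377% for CHG and 0.366% for CHH. So partly methylated runs lay between low and high runs in both contexts, and low runs lay at the mitochondrial level for CHG.

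The difference between partly methylated and high runs was -0.296 points for CHG (-0.310 to -0.281) and -0.395 points for CHH (-0.417 to -0.374). Both were negative on 19 of 19 autosomes. CHG in partly methylated runs ranged from 0.502% on chromosome 5 to 0.659% on chromosome 18, and in high runs from 0.826% on chromosome 1 to 0.961% on chromosome 9, with no overlap. CHH ranged from 0.436% to 0.778% in partly methylated runs and from 0.915% to 1.20% in high runs, again without overlap. The SD of the difference over autosomes was 0.0524 points for CHG and 0.115 points for CHH.

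**Figure D4:**
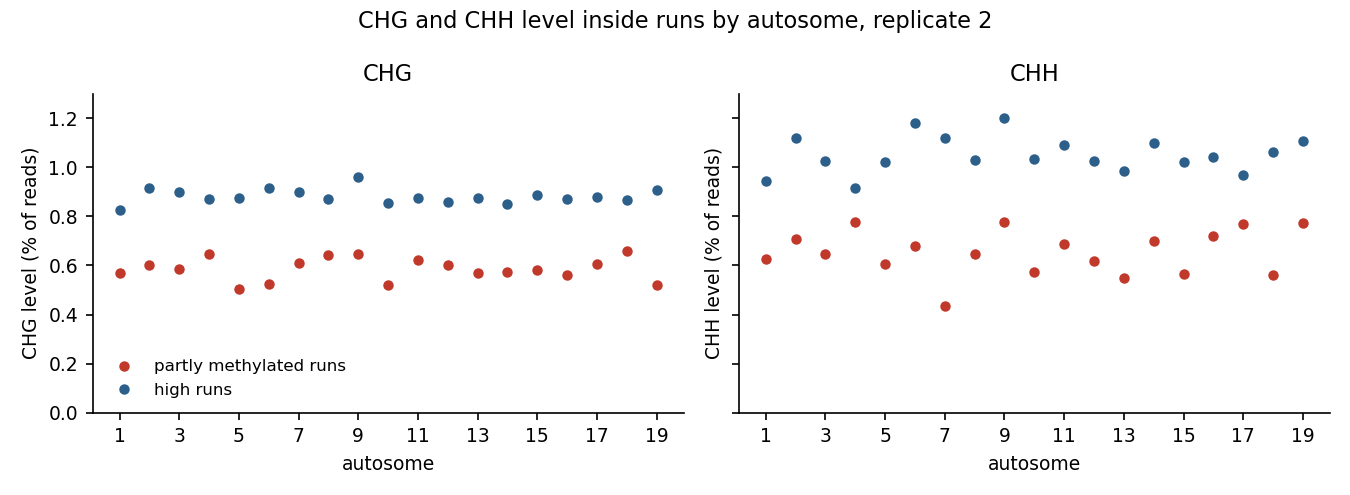
CHG and CHH level (% of reads) inside partly methylated runs and high runs of replicate 2, 1 point for each of 19 autosomes and class. Every autosome has the partly methylated runs lower, at 0.502 to 0.659% against 0.826 to 0.961% for CHG.

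The size of these differences varied with some depth settings and not with others. CHG sites of at least 30 reads gave -0.304 points, and CHG sites of at most 60 reads gave -0.297 points. With runs called on CpG of at least 30 reads, which leaves 191 partly methylated runs, they were -0.158 points for CHG and -0.0953 for CHH. With CHG and CHH sites of at least 40 reads they were -0.101 and -0.197 points. In replicate 1 the direction was not the same. At the 113 CHG sites listed in both libraries within 36 of the partly methylated runs, replicate 1 stood at 2.34% (1.86 to 2.91%), against 0.801% (0.678 to 0.941%) at 709 shared sites of high runs. At the same sites replicate 2 also had the partly methylated runs higher, at 0.768% against 0.620%. For CHH, replicate 1 stood at 2.74% at 144 sites against 0.939% at 1438 sites, and replicate 2 at 0.881% against 0.602%.

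A single run carried most of that excess, the run on chromosome 17 from 88853810 to 88853935, where replicate 1 had 53 of 437 CHG reads (12.1%) and 105 of 1356 CHH reads (7.74%) methylated. Without it, chosen after its values were seen, replicate 1 stood at 0.907% (0.598 to 1.32%) for CHG and 0.737% (0.477 to 1.09%) for CHH in partly methylated runs. At the same sites without that run, replicate 2 stood at 0.586% (0.411 to 0.810%) for CHG, below the 0.620% of high runs, and at 0.629% (0.475 to 0.816%) for CHH, above their 0.602%, with both high-run values inside these intervals. The difference from high runs in replicate 1 was then 0.105 points for CHG, inside its counting error of 0.364 points, and -0.202 points for CHH, inside 0.303 points. The lower CHG and CHH of partly methylated runs thus rests on all listed sites of replicate 2, and it was not seen at the few sites shared with replicate 1.

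The lower level was local. By distance from partly methylated runs, CHG rose from 0.585% inside to 0.623% at 1 to 100 bases, 0.728% up to 300, 0.884% up to 1000 and 0.966% at 1 to 2 kb. Further out it was 0.918% at 2 to 5 kb, 0.862% at 5 to 20 kb and 0.835% at 20 to 100 kb. CHH followed the same course, from 0.649% inside to 1.07% at 1 to 2 kb and 0.967% at 20 to 100 kb. Around 1 to 2 kb from partly methylated runs, CHG and CHH therefore stood above the autosomal levels of 0.784% and 0.889%, and above the levels at the same distance from high runs, 0.840% and 0.938%. Low runs shared this course. Around them CHG rose from 0.362% inside to 0.809% at 1 to 2 kb, and CHH from 0.435% to 0.987%. Both stood above the autosomal levels there, though below those around partly methylated runs.

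Against their own surroundings at 1 to 5 kb, partly methylated runs differed by -0.345 points for CHG (-0.360 to -0.331) and by -0.389 points for CHH (-0.411 to -0.366), on 19 of 19 autosomes in both contexts. High runs went the other way, with CHG 0.0476 points and CHH 0.119 points above their surroundings, positive on 18 and 19 of 19 autosomes. With CpG of at least 30 reads the CHG difference of partly methylated runs was -0.201 points. For runs called in replicate 1 by the same rule, which are 39, it was -0.331 points with a counting error of 0.259 points.

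**Figure D5:**
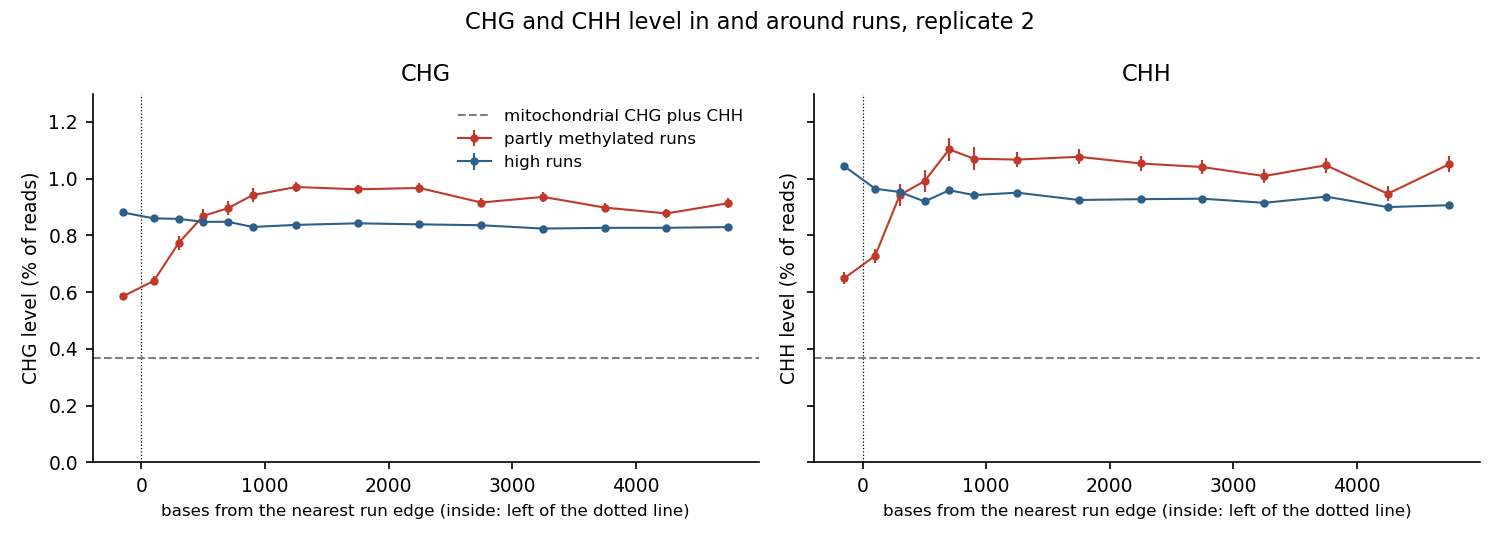
CHG and CHH level (% of reads) inside runs, left of the dotted line, and by distance in bases from the nearest run edge in replicate 2, with exact 95% intervals and the mitochondrial level dashed. Partly methylated runs start at 0.585% and 0.649% inside and pass the line of the high runs within the first 1000 bases.

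The local dip was also present where the surrounding CpG were highly methylated. Among the 815 runs with both sides above 80%, CHG was 0.556% (0.519 to 0.595%) inside and 1.01% (0.990 to 1.02%) at 1 to 5 kb outside. CHH in these runs was 0.711% inside and 1.15% outside. Where the lower side was at 10 to 60%, CHG was 0.615% inside and 0.914% outside. In the 197 runs with at least 1 side below 10% it was 0.557% (0.478 to 0.647%) and 0.776% (0.743 to 0.809%). CHH in the last 2 classes was 0.703% inside and 0.945% outside, and 0.833% and 1.08%. The gap was widest in both contexts where both sides were above 80%. For CHG it was narrowest with a side below 10%, whereas the CHH gaps of the last 2 classes were alike.

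Among the runs themselves, CHG and CHH were higher where CpG was higher. CHG was 0.449% (0.401 to 0.500%) in runs at 10 to 20%, 0.555% at 20 to 30%, 0.581% at 30 to 40%, 0.678% at 40 to 50% and 0.694% (0.589 to 0.812%) at 50 to 60%. CHH was 0.539%, 0.562%, 0.668%, 0.763% and 0.789% in the same order. Even the highest of these levels stayed below the 0.881% and 1.04% of high runs, although the CHH interval at 50 to 60% (0.625 to 0.983%) is wide. These levels come from the same fragments, so a fragment that failed to convert adds to both, and the share of such fragments was not tested.

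The difference was present at every spacing of CpG. In partly methylated runs CHG was 0.577%, 0.593% and 0.582% at a mean spacing under 20, from 20 to 50 and of 50 or more bases. In high runs it was 0.717%, 0.850% and 0.897%. For CHG the partly methylated runs were lower in all 3 ranges, by less where CpG were closest. CHH in the same order was 0.630%, 0.629% and 0.660% in partly methylated runs and 1.07%, 0.994% and 1.06% in high runs. For CHH the partly methylated runs were again lower in all 3 ranges, though not by less where CpG were closest. By depth of the CHG site, their level was 0.570% at 20 to 24 reads, 0.622% at 25 to 29, 0.548% at 30 to 39 and 0.626% (0.537 to 0.725%) at 40 or more. High runs had 0.881%, 0.891%, 0.880% and 0.727% (0.695 to 0.760%), so the classes drew closer at the deepest sites.

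Single cytosines gave the same order. Each site was tested by an exact binomial test, one-sided, of its methylated reads against the mitochondrial CHG plus CHH rate of 0.368%, adjusted by Benjamini-Hochberg at 0.01. In partly methylated runs 436 of 49759 CHG sites were called (0.876%, 0.796 to 0.962%), where 1.46% of all autosomal CHG sites were. High runs had 1.78% and low runs 0.396%. For CHH, 288 of 17284 sites were called in partly methylated runs (1.67%, 1.48 to 1.87%), against 2.75% of all autosomal CHH sites, 3.41% in high runs and 0.778% in low runs. The called CHG sites of partly methylated runs had a median level of 15.4%. No more than 2 called CHG sites fell in any 1 of these runs, and 412 of the 7161 runs with a listed CHG site held at least 1. With a background rate of 1% in place of the mitochondrial rate, 0.289% of CHG sites were called.

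The measured CHG and CHH levels of single runs spread widely. At such low levels a run of about 500 reads holds few methylated reads, so counting error is part of this spread. How large a part was not tested. At least 500 reads of both contexts together were available in 862 runs, where the median level was 0.506% (5th to 95th percentile 0 to 1.57%) and 83 runs had no methylated read. The highest was the run of 4 CpG on chromosome 17 from 88853810 to 88853935, at 4.39% (3.22 to 5.84%), with CpG at 59.5%, 43.8%, 59.2% and 25.7%. Next were a run of 4 CpG on chromosome 3 from 139171378 to 139171994, at 3.12% (2.01 to 4.61%), and a run of 5 CpG on chromosome 16 from 33686502 to 33686838, at 3.06% (1.79 to 4.86%). All 3 had CpG levels of 39.6% to 48.3%, above the median of the class. At the other end, a run of 7 CpG on chromosome 8 from 19980317 to 19980473 had 0 of 1259 CHG and CHH reads methylated, which allows up to 0.293%, while its CpG were at 35.5%. The runs on chromosome 11 from 36374441 to 36374849 and on chromosome 18 from 63834706 to 63835097 also had 0 methylated reads, of 1018 and 986, with CpG at 22.2% and 32.4%.

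Replicate 1 did not enter the rule and gives a second measure of the same CpG. Of the 34547 CpG, 94 in 39 runs were also listed there at 20 to 100 reads. They were at 28.0% (26.3 to 29.7%) in replicate 1 and 26.8% in replicate 2. Of these 94 CpG, 71 (75.5%) were at 10 to 60% in replicate 1 as well, 19 were below 10%, 4 were above 60% and 1 of those was above 80%. Of all 3061 autosomal CpG shared by the libraries, 638 (20.8%) were at 10 to 60% in replicate 1. The count was 9 of 445 in high runs and 11 of 33 (33.3%) in low runs. The 445 CpG of high runs listed in both were at 91.3% and 92.4%, with 385 above 80% in replicate 1, and the 33 CpG of low runs were at 7.26% and 4.12%. Partly methylated and high runs thus differed by -63.3 points in the library that did not choose them. By run, the levels in replicate 1 went from 0% to 81.0% with a median of 27.9%, and 32 of 39 runs were at 10 to 60%. For 17 of the 39 runs this level is that of 1 shared CpG. The 39 runs are deep ones, with a median depth of 43 reads in replicate 2, so they are not a sample of all runs.

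By Fisher's exact test of each shared site, two-sided and adjusted by Benjamini-Hochberg at 0.05 over all contexts, 0 of the 94 CpG differed between the libraries, and 10 had an unadjusted p below 0.05. Without adjustment the same Fisher's test gave p below 0.05 at 404 of all 3061 shared autosomal CpG and at 36 of the 445 in high runs. The count of 10 is therefore not particular to partly methylated runs. Over all shared nuclear CpG, 7 of 3185 differed (0.22%), and over shared sites of all contexts 13 of 54732 (0.0238%). At these depths large differences stay short of the threshold: a CpG on chromosome 1 at 172993920, in the run from 172993849 to 172993923, was at 51.9% of 27 reads and 17.6% of 68 reads, with an adjusted p of 0.58 by this exact test. In the run of 10 CpG on chromosome 8 from 19784670 to 19784791, the 8 shared CpG were at 0 to 13.6% in replicate 1 and at 10.2 to 17.2% in replicate 2. In the run of 7 CpG on chromosome 9 from 56071392 to 56071462, all 7 were shared, at 4.88 to 30.6% in replicate 1 and 13 to 27.9% in replicate 2. Its 2 highest shared CpG were the same in both libraries, at 30.6% and 28.6% in replicate 1 and 27.9% and 26.7% in replicate 2. On chromosome 8 from 19982797 to 19982938, the 4 CpG were at 39.3%, 22.2%, 63.0% and 50% in replicate 1 and at 44.4%, 28.7%, 42.6% and 57.0% in replicate 2. The second of these was the lowest in both libraries. On chromosome 1 from 90828036 to 90828307, the 3 shared CpG were at 43.8%, 59.3% and 56.5% in replicate 1 but at 52.2%, 29.2% and 16.7% in replicate 2.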

How the data were processed

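Whole-genome bisulfite reads of 2 dentate gyrus libraries were handled with Bismark 0.7.5 on build mm9, per the submitters' processing notes. Whether reads were trimmed or PCR duplicates removed is not given in the sources used here. For each library and context the authors deposited a table, 6 in all and without headers, of cytosines of the strand class named OT. The deposited values are read counts per cytosine (methylated, unmethylated and their sum) and the percent methylated, as the authors computed it. Listed sites start at 20 reads, and at 30 reads for CHH in replicate 2. Replicate 1 held 30594981 read calls and replicate 2 held 791200717.

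From these counts, runs were called on autosomal CpG of 20 to 100 reads. The level of a class is its summed methylated reads over its summed reads, for sites of 20 to 100 reads, with exact Clopper-Pearson 95% intervals. Intervals of differences are normal approximations from read counts. Methylated sites were called by an exact binomial test, one-sided, and sites were compared between libraries by Fisher's exact test, both with Benjamini-Hochberg adjustment (SciPy 1.17.1, NumPy 2.4.6). Both tests and the run caller were checked on simulated data. As runs come from 1 library of 1 group, no test between classes of run was made. The members, lists and rules were chosen with earlier results of these data known, and 3 steps were added after the files were seen: low runs, the placing of promoters and the ranges of spacing, depth and run level. Named runs are the 10 with the most CpG, the 3 highest and 3 lowest by CHG plus CHH level among those with at least 500 such reads, and the 10 with the most CpG also listed in replicate 1. Named promoters among placed windows were chosen after their values were seen. Promoter sequences and gene names are RefSeq's (GRCm38.p6).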

Additional observations from a re-analysis of the deposited data

How the results depend on the processing

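The CHG, CHH and CpG differences between partly methylated and high runs, and the CHG difference to the surroundings, were negative under every alternative tried on all listed sites, while their size moved. With runs called in replicate 1, the CHG and CHH differences between classes lay inside counting error, so no sign is established there. At the sites that both libraries list, the CHG and CHH differences of replicate 1 were positive. No paired analysis was possible because the series has 1 group, with no second group to pair it with. The runs come from replicate 2, so leaving out replicate 1 gives the values reported, and leaving out replicate 2 calls the runs in replicate 1. Leaving out replicate 2 moved the class differences furthest, and replicate 1 has few listed sites. The cause of each change was not tested. A value is counted as moved when it leaves its own counting interval, or for a count when it changes over 1.5 times. Of 90 alternatives, 45 moved by this measure without a change of sign, 44 did not and 1 changed sign.

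Without replicate 2 there were 39 partly methylated and 57 high runs, with differences of -0.0657 points for CHG (counting error 0.223), -0.0591 points for CHH (counting error 0.166) and -24.2 points for CpG over 300 and up to 2000 bases away, and 0.637% of CHG sites called. With CpG of at least 30 reads there were 191 and 1344 runs, with differences of -0.158 (CHG), -0.0953 (CHH), -0.201 (CHG to the surroundings) and -12.0 points (flanking CpG), and -65.8 points in replicate 1. With CpG of at most 60 reads the last was -56.9 points. With a window of 20 to 60% there were 3872 partly methylated runs, and the same 5 differences were -0.237, -0.355, -0.284, -7.69 and -57.6 points, with 1.05% of CHG sites called. With 10 to 50% they were -0.319, -0.429, -0.379, -8.73 and -69.4 points. With at least 5 CpG there were 2954 and 29099 runs, with -0.324 (CHG), -0.390 (CHG to the surroundings), -9.85 (flanking CpG) and -69.6 points (replicate 1). Gaps of at most 200 bases gave -0.280 points for CHG and -8.29 for flanking CpG, and gaps of at most 500 gave -0.355 for CHH and -4.04 for flanking CpG. CHG and CHH depths of at least 40 gave -0.101 and -0.197 points. High runs within 100 kb of a partly methylated run gave -0.346 and -0.463 points, and runs of 4 to 6 CpG spanning up to 300 bases gave -0.280 and -0.370 points. A background rate of 1% left 0.289% of CHG sites called. Among alternatives added after the data were seen, leaving out CHG sites directly before a listed CpG gave -0.318 points. Leaving out the run of chromosome 17 with the most methylated reads moved the replicate 1 difference between partly methylated and high runs from 1.54 to 0.105 points for CHG, and reversed it from 1.80 to -0.202 points for CHH.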
